A study of Homo sapiens with 2 samples.

Results

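The genes described here are 34 regulators and executors of apoptosis: the BCL2 family, the inhibitor of apoptosis (IAP) proteins, caspases, death receptor adaptors, and the mitochondrial proteins that act with them. They were chosen by name, with earlier results of these data known. A probe set, a group of short probes on the array that reads 1 transcript, was taken when its annotation gave exactly 1 of these symbols and no other. This gave 102 probe sets for 33 of the 34 genes, out of 41097 probe sets with a single symbol for 19775 genes. BBC3, which encodes the BH3-only protein PUMA, had no probe set annotated to it alone and has no value here.

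The samples were 1 HCC15 culture transfected with CTNNB1 siRNA, which targets the transcript of beta-catenin, and 1 HCC15 culture transfected with a control siRNA. HCC15 is an established human lung cancer cell line, labelled squamous, and the title of the series places it among non-small-cell lung cancers with a mutated CTNNB1. Both cultures were grown in RPMI medium with 5% serum and collected 48 h after transfection. The labels give neither siRNA's sequence, the control sample's title carries the word Tax, and each treatment is 1 culture of 1 cell line on 1 array.

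Apoptosis through mitochondria is set by binding between BCL2 family proteins. BH3-only proteins respond to stress and release or activate the effectors BAX and BAK1, which open the outer mitochondrial membrane, and BCL2, BCL2L1 (BCL-xL), BCL2L2 and MCL1 hold them back. Cytochrome c (CYCS) that leaks out assembles APAF1 and caspase 9 into the apoptosome. Death receptors instead recruit FADD and caspase 8 or 10, and CFLAR blocks that step. IAP proteins such as XIAP bind caspases, and DIABLO and HTRA2 released from mitochondria displace them. Several of these proteins, MCL1 above all, are also controlled after transcription, which an array of transcripts does not read.

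The deposited values were 1 signal intensity per probe set on each array. A probe set entered the comparison when the mean of its 2 signals reached 49.1, the median of all values, and 77 of the 102 probe sets did, for 31 of the 34 genes. Where several entered, the brightest by mean signal stands for the gene. With 1 array in each group there was no replicate and no test. Genes were called by size alone, at 2-fold. Log2 ratios are CTNNB1 siRNA over control siRNA throughout, and each can be set against 0.42, the SD of log2 ratios between probe sets of the same gene over 5791 genes. That SD covers disagreement between probe sets and not variation between cultures. In these bulk cultures, a change in the share of cells that express a gene and a change in its RNA per cell cannot be told apart.

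The targeted transcript was lower in the culture labelled CTNNB1 siRNA. On the brightest of its probe sets (201533_at) the signal was 339 with CTNNB1 siRNA and 1224 with control siRNA, a log2 ratio of -1.85. The other CTNNB1 probe sets had log2 ratios of -0.97 and -0.13. Over all 12531 genes tested the median log2 ratio was 0.15, so a small positive ratio is the ordinary value in the deposited signals. Under 5 other scalings of the arrays that median ran from -0.07 to 0.29, so its sign depends on the scaling. The keratin genes KRT8 and KRT18, markers of simple epithelium, were bright on both arrays. Of 8 squamous markers 3 entered (SFN, PERP and SOX2, the last with a mean signal of 50.85, just above the filter). The other 5 did not, among them KRT5, KRT14 and DSG3, whose probe sets lay under the filter. Of 4 lung glandular markers 3 entered as well (NAPSA, SFTPB and SFTPC), with signals of at most 190.6. The endothelial gene PECAM1 also entered, at 80.8 with CTNNB1 siRNA and 96.4 with control siRNA on its brightest probe set. No probe set of the leukocyte genes PTPRC and CD3E entered, their highest signal on either array being 41.3.

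Of the 31 apoptosis genes that entered, 2 were at least 2-fold higher with CTNNB1 siRNA, BAX and AIFM1, and 0 were lower by that much. Over all genes tested, 2.29% were at least 2-fold higher and 2.38% at least 2-fold lower, against 6.45% and 0 here. The list was chosen with earlier results of these data known, so these shares only describe it. BAX forms pores in the outer mitochondrial membrane, and AIFM1 encodes apoptosis-inducing factor, a flavoprotein of the mitochondrial intermembrane space that also serves respiratory chain assembly. Of the 31 genes, 24 lay within 1 probe set SD of the all-gene median. The share farther away was 22.6% here, against 29.9% of all genes tested. The plot of signals on the 2 arrays shows the long lines of BAX and AIFM1 beside the short ones of their neighbours.

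**Figure D1:**
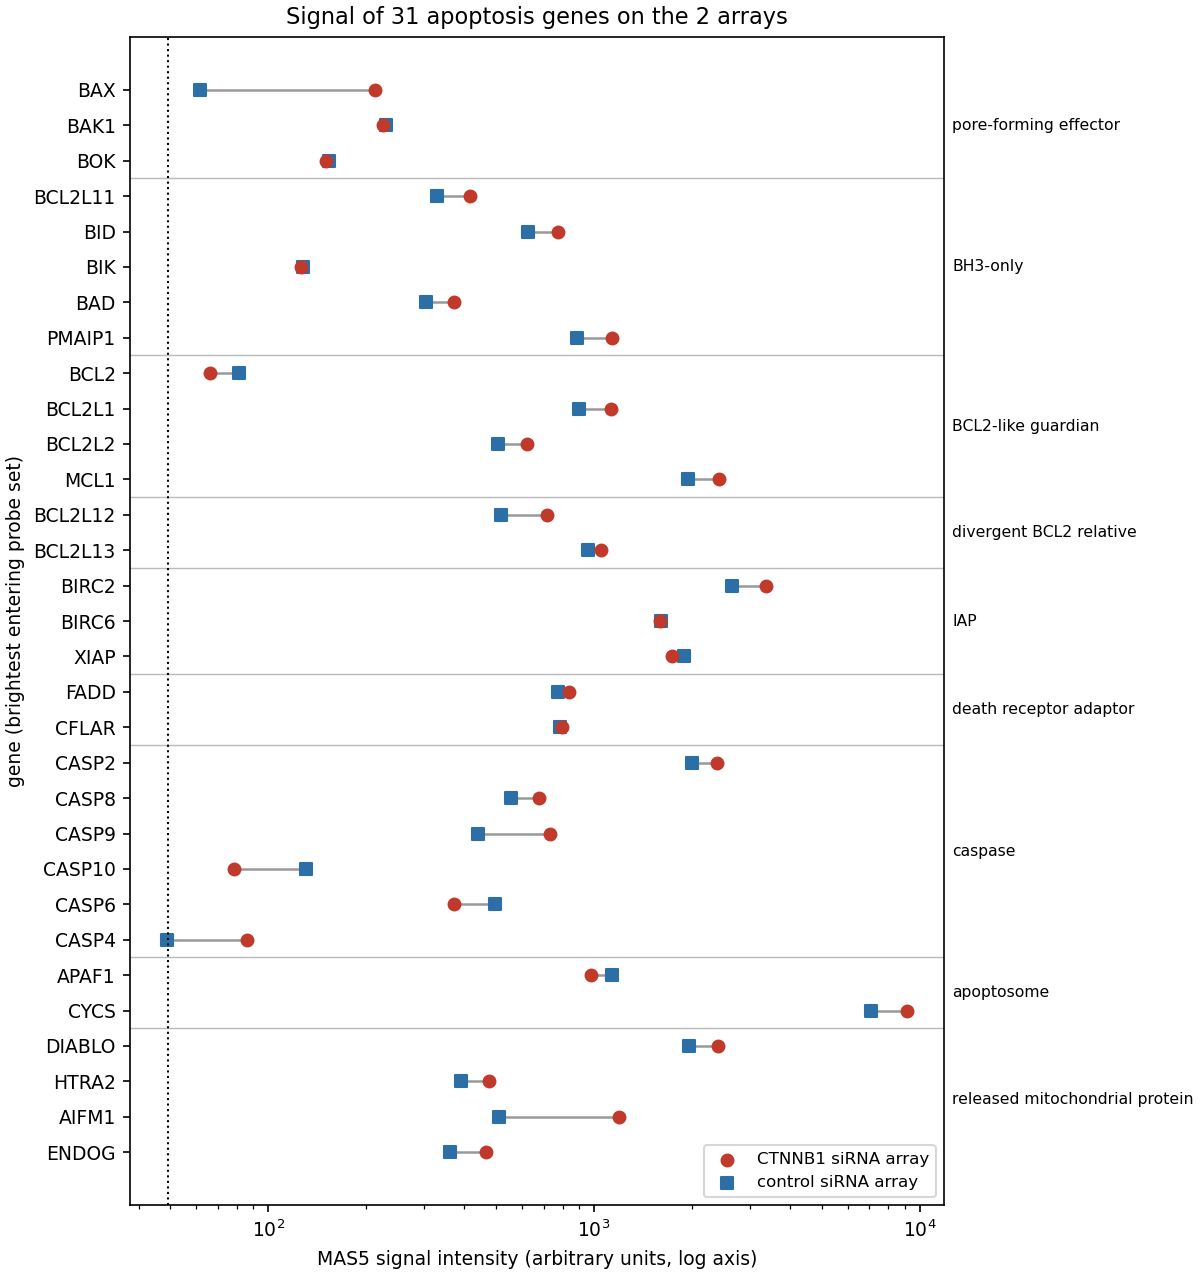
MAS5 signal (log axis) of the representative probe set of each of 31 apoptosis genes, ordered by role, with the CTNNB1 siRNA array as red circles, the control siRNA array as blue squares and the filter at 49.1 as a dotted line. BAX (213 against 61.9) and AIFM1 (1189 against 510) are the 2 genes more than 2-fold apart, and signals of different probe sets are not comparable as levels.

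BAX was read by 2 probe sets. The brighter one (211833_s_at) had a signal of 213 with CTNNB1 siRNA and 61.9 with control siRNA, and the other (208478_s_at) 115.8 with CTNNB1 siRNA and 46.9 with control siRNA. Both were high on the CTNNB1 siRNA array and dim, near the filter, on the control array. The ratios were 3.44-fold (log2 1.78) and 2.47-fold (log2 1.30). BAX stayed past 2-fold in all 10 alternative settings in which it entered. Its log2 ratio was highest, at 1.92, with scaling to a common median. The lowest, 1.54, was the median over its probe sets and rests in part on the dimmer one. BAX did not enter under a filter at the 75th percentile of signal. It also did not enter without probe sets whose names end in _s_at or _x_at, since both of its probe sets have such names. Probe sets so named can take signal from related transcripts.

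The other pore-forming genes did not go with BAX. BAK1 had a signal of 224.8 with CTNNB1 siRNA and 230.4 with control siRNA. BOK had 150.4 with CTNNB1 siRNA and 153.3 with control siRNA. Their log2 ratios were -0.04 and -0.03, just below the all-gene median of 0.15 and within 1 probe set SD of it, and both turned positive with scaling to a common median. A dim second BOK probe set (221454_at), under the filter, read 23.5 with CTNNB1 siRNA and 3.3 with control siRNA.

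The start regions of the 2 genes past 2-fold are shown because the series looks for Wnt target genes, and beta-catenin acts at DNA through TCF/LEF factors. The windows run from 250 bases before the RefSeq start site to 50 bases after it, in GRCh38.p14, at chr19:48954625-48954924 on the plus strand for BAX and at chrX:130165792-130166091 on the minus strand for AIFM1. Capitals mark CACGTG in BAX and the reverse complement of CTTTGAT in AIFM1.
BAX: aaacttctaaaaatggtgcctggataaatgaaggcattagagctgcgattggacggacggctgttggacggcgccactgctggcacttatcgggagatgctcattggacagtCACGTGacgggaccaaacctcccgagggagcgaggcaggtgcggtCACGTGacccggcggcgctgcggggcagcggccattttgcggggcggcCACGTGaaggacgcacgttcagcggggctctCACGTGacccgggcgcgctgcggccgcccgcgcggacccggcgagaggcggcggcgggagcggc
AIFM1: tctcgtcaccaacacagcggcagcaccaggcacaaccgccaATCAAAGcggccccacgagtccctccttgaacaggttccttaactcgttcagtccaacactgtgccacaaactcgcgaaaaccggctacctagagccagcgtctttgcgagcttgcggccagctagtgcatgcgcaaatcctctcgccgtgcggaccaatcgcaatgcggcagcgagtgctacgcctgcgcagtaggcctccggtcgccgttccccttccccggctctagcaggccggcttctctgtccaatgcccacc

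The AIFM1 window held 1 TCF/LEF match, searched on both strands as CTTTGNN with only A or T allowed at each N, starting 209 bases before the start site on the opposite strand. The BAX window held none. Such a match was in 4829 of 35116 RefSeq windows of 300 bases, 13.8%, and in 6 of the 55 windows of the apoptosis genes, 10.9%. BAK1, BID, CASP2 and XIAP were the other genes with one, and none of these reached 2-fold by its representative probe set. The BAX window held 4 copies of the E-box CACGTG, a palindrome read by factors such as MYC with MAX and the USF proteins. At least 1 copy was in 7.26% of all windows and in 5 of the 55 windows here (9.09%), and 5 of the 35116 windows held 4 or more. The E-box was added to the search after the BAX sequence had been seen. The p53 half-site, whose letters include alternatives, matched in 6.63% of all windows and in 1 window each of BAK1, BCL2L13, CASP8 and CASP9. None of these motifs overlapped another in the windows shown. BAX is a known p53 target. Its window held no half-site, but sequence outside the 300 bases was not searched, so this does not bear on p53 control of BAX. A match in a window is a description of letters and says nothing of binding in these cells.

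Of the 7 BH3-only genes 5 entered, and 0 of the 5 passed 2-fold. BID, which caspase 8 cleaves to link death receptors to mitochondria, had signals of 773, 607 and 376 on its 3 probe sets with CTNNB1 siRNA, and of 629, 467 and 276 with control siRNA. All 3 were higher with CTNNB1 siRNA by like amounts, with log2 ratios from 0.30 to 0.45. PMAIP1, the gene of the MCL1 antagonist NOXA, had 1132 and 1066 with CTNNB1 siRNA and 888 and 818 with control siRNA, log2 ratios of 0.35 and 0.38. BAD, whose protein is kept inactive by phosphorylation, had 370 and 235.5 with CTNNB1 siRNA and 304 and 152.4 with control siRNA. The 2 BAD ratios, 0.28 and 0.63, were both above the all-gene median. BIK read 126 with CTNNB1 siRNA and 127.5 with control siRNA, a log2 ratio of -0.02. BMF, under the filter, read 43.3 with CTNNB1 siRNA and 48.5 with control siRNA.

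BCL2L11, the gene of BIM, gave different answers from different probe sets. Its brightest (225606_at) had a signal of 416 with CTNNB1 siRNA and 330.1 with control siRNA, a log2 ratio of 0.33. A second (1553096_s_at) had 322 with CTNNB1 siRNA and 131 with control siRNA, 2.46-fold higher, and the next (1558143_a_at) 192 with CTNNB1 siRNA and 107 with control siRNA, a log2 ratio of 0.84. BIM is made in several splice forms, and the table does not say which of them each probe set reads. The remaining entering probe sets had log2 ratios of 0.35, 0.19 and -0.09, so 5 of the 6 were above 0. The seventh probe set (208536_s_at), under the filter, read 55 with CTNNB1 siRNA and 17.9 with control siRNA. The median over the 6 entering probe sets was 0.34.

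Among the BCL2-like guardians, 4 of 5 genes entered and 0 passed 2-fold. BCL2 itself was dim, at 66.2 with CTNNB1 siRNA and 81.5 with control siRNA on 1 probe set (203685_at) and 62.6 with CTNNB1 siRNA and 64.3 with control siRNA on another (207004_at). Both were lower with CTNNB1 siRNA, with log2 ratios of -0.30 and -0.04. A BCL2 probe set under the filter (207005_s_at) read 3 with CTNNB1 siRNA and 28.1 with control siRNA. BCL2 was the only guardian of the 4 below the all-gene median, and it stayed below 0 in all 11 alternative settings in which it entered.

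BCL2L1, which encodes BCL-xL and, by another splice, the shorter BCL-xS, had a signal of 1127 with CTNNB1 siRNA and 902 with control siRNA on its brightest probe set (212312_at), a log2 ratio of 0.32. Its dimmer probe sets differed more. One (206665_s_at) had 87.7 with CTNNB1 siRNA and 41.2 with control siRNA, 2.13-fold higher, and the other (215037_s_at) 84.8 with CTNNB1 siRNA and 43.0 with control siRNA, a log2 ratio of 0.98. The dimmer ones passed the filter only through their signal on the CTNNB1 siRNA array, so they had to be higher there, and the gene's ratio by the median over its probe sets, 0.98, rests on them.

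MCL1, a short-lived guardian, split by probe set. The 2 bright ones were higher, at 2414 and 1229 with CTNNB1 siRNA and 1943 and 894 with control siRNA (log2 0.31 and 0.46). The 2 dimmer entering ones were lower, at 186 and 137 with CTNNB1 siRNA and 205 and 174 with control siRNA (log2 -0.14 and -0.34). BCL2L2, the gene of BCL-w, had 623 with CTNNB1 siRNA and 507 with control siRNA, a log2 ratio of 0.30. BCL2A1, an NF-kB target in blood cells, was under the filter at 19.5 with CTNNB1 siRNA and 28.5 with control siRNA. Of the divergent relatives placed in neither list, BCL2L12 had 718 with CTNNB1 siRNA and 517 with control siRNA (log2 0.47). BCL2L13 had 1050 with CTNNB1 siRNA and 958 with control siRNA (log2 0.13), and its 5 probe sets ran from -0.67 to 0.38.

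**Figure D2:**
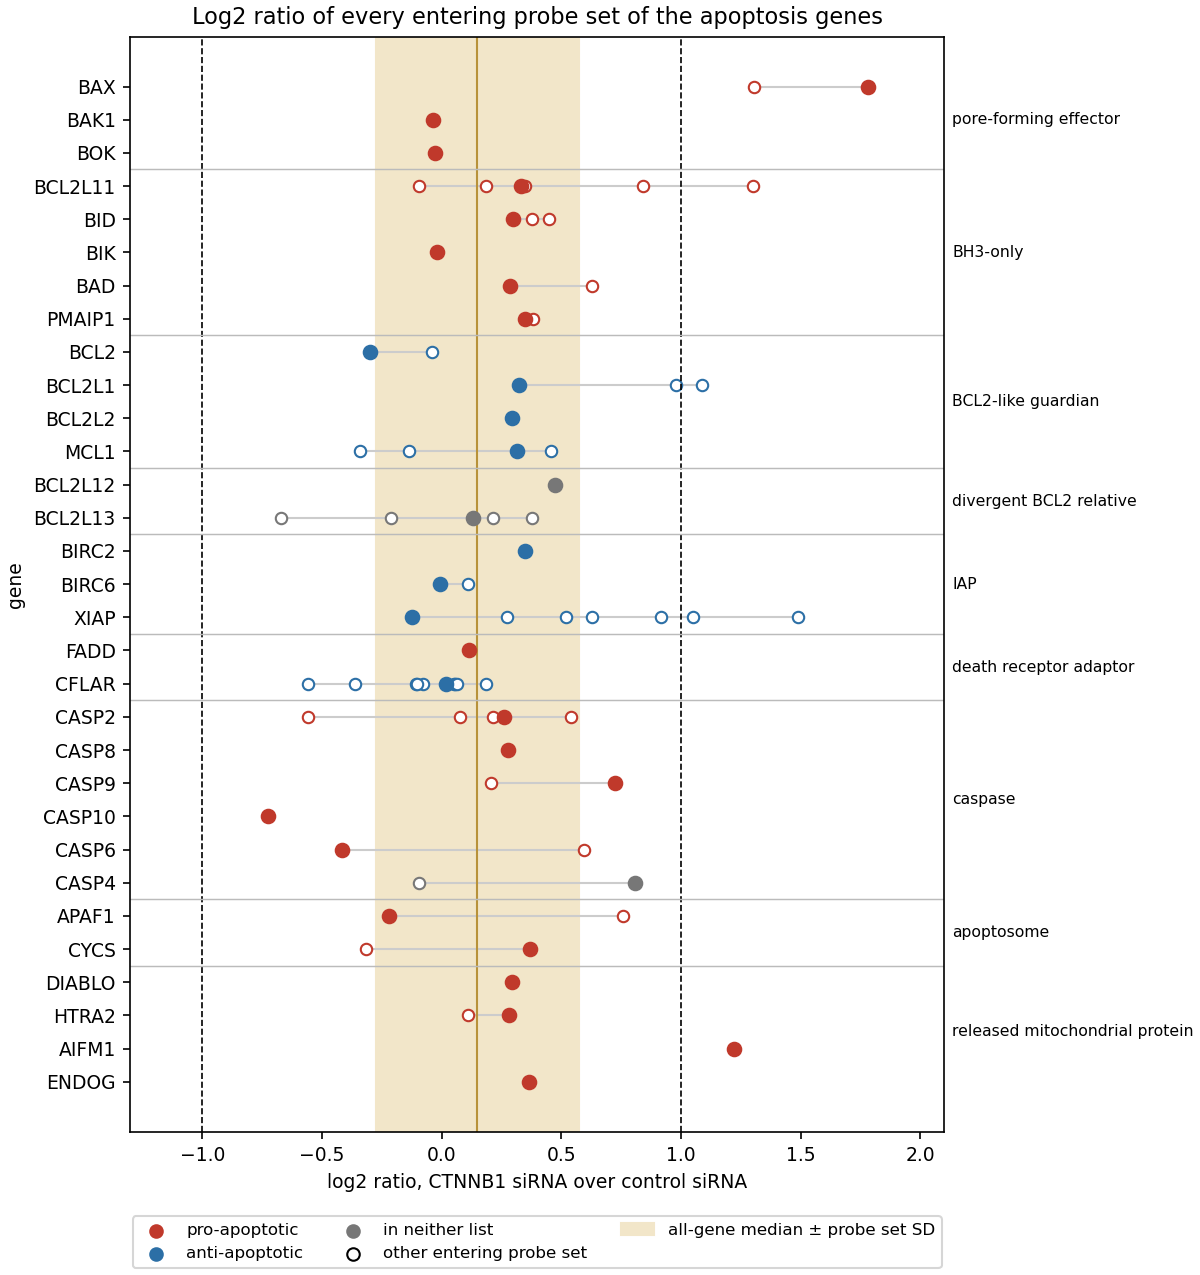
Log2 ratio of each of the 77 entering probe sets (x axis) by gene (y axis), with the representative probe set filled, pro-apoptotic genes red, anti-apoptotic genes blue and genes in neither list grey. Dashed lines mark 2-fold and the band the all-gene median of 0.15 with 1 probe set SD of 0.42 on each side; 7 probe sets of 5 genes lie beyond the upper dashed line and 0 beyond the lower.

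Among the 3 IAP genes, XIAP, the most direct caspase inhibitor of the family, had 7 entering probe sets, and they lay farther apart than those of any other gene of the 31. The brightest (228363_at) had a signal of 1733 with CTNNB1 siRNA and 1891 with control siRNA, a log2 ratio of -0.13. The other 6 were all higher with CTNNB1 siRNA. The second brightest (235222_x_at) had 1232.5 with CTNNB1 siRNA and 654 with control siRNA, 1.89-fold, and the third (243026_x_at) 629 with CTNNB1 siRNA and 303 with control siRNA, 2.07-fold. Another (225858_s_at) had 269 with CTNNB1 siRNA and 95.7 with control siRNA, 2.81-fold. The remaining 3 had log2 ratios of 0.63, 0.52 and 0.27. The sign for XIAP therefore depends on the probe set: -0.13 by the brightest, 0.63 by the median and 1.49 by the largest. Which transcripts or parts of the transcript each one reads was not tested.

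BIRC2, the gene of cIAP1, a ubiquitin ligase of the tumour necrosis factor receptor complex, had 3367 with CTNNB1 siRNA and 2646 with control siRNA, a log2 ratio of 0.35. BIRC6, a very large IAP with ubiquitin-conjugating activity, had 1599 and 1403 with CTNNB1 siRNA and 1606 and 1299.5 with control siRNA. Its 2 probe sets, at 99.6% and 108% of the control, were both under the all-gene median.

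At the death receptors, FADD, the adaptor that brings in caspase 8, had 840 with CTNNB1 siRNA and 776 with control siRNA, a log2 ratio of 0.11. CFLAR, which encodes the caspase 8 decoy FLIP, had 14 probe sets, of which 10 entered. The brightest (209939_x_at) had 798 with CTNNB1 siRNA and 787 with control siRNA, a log2 ratio of 0.02, and the 10 ran from -0.56 to 0.19 with 5 above 0 and 5 below. Only 1 of the 10 exceeded the all-gene median. FADD and CFLAR changed sign under 4 of the 5 other scalings.

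The caspases went different ways, and none of the 6 passed 2-fold by its representative probe set. CASP9, the apoptosome caspase, had 730 with CTNNB1 siRNA and 441 with control siRNA on its brightest probe set (203984_s_at), 1.65-fold higher (log2 0.73), and 399.5 with CTNNB1 siRNA and 346 with control siRNA on its second (log2 0.21). Its log2 ratio stayed between 0.47 and 0.86 in the alternative settings. CASP10, a relative of caspase 8 at death receptors, was the lowest of the 31 genes, at 78.7 with CTNNB1 siRNA and 130 with control siRNA (205467_at), 1.65-fold lower (log2 -0.73). Of its 3 probe sets under the filter, 2 were lower as well, at 11.8 and 18.8 with CTNNB1 siRNA and 70.0 and 44.9 with control siRNA, and the third was higher, at 27.2 with CTNNB1 siRNA and 11.3 with control siRNA. The value of 11.8 is under the floor of 13.8 that was set for low signals, so the first of these is at least 5.07-fold lower.

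CASP8 had 675 with CTNNB1 siRNA and 557 with control siRNA, a log2 ratio of 0.28, while its 2 dim probe sets under the filter pointed opposite ways, with 19.8 and 48.1 with CTNNB1 siRNA and 60.3 and 14.8 with control siRNA. CASP2, an initiator linked to p53 and DNA damage, had 2384 with CTNNB1 siRNA and 1991 with control siRNA, a log2 ratio of 0.26, and its 5 entering probe sets ran from -0.56 to 0.54. CASP6, an executioner that cleaves lamins, split. One probe set (211464_x_at) had 372 with CTNNB1 siRNA and 496 with control siRNA (log2 -0.42), and the other (209790_s_at) 388 with CTNNB1 siRNA and 256 with control siRNA (log2 0.60). CASP4, an inflammatory caspase that senses bacterial lipopolysaccharide and was placed in neither list, had 85.9 with CTNNB1 siRNA and 49.0 with control siRNA, just under the filter (log2 0.81), and 48.7 with CTNNB1 siRNA and 52.0 with control siRNA on a second probe set (log2 -0.09).

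In the apoptosome, APAF1 had 975 with CTNNB1 siRNA and 1134.5 with control siRNA, a log2 ratio of -0.22, on its brightest probe set (204859_s_at). A dimmer one (211554_s_at) went the other way, at 130.4 with CTNNB1 siRNA and 77.1 with control siRNA (log2 0.76). CYCS had 9139.5 with CTNNB1 siRNA and 7080 with control siRNA (log2 0.37) on 1 probe set and 161 with CTNNB1 siRNA and 200.1 with control siRNA (log2 -0.32) on another.

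All 4 genes of proteins released from mitochondria lay above the all-gene median. AIFM1 had a single probe set (205512_s_at), at 1189 with CTNNB1 siRNA and 510 with control siRNA, 2.33-fold higher (log2 1.22). It stayed past 2-fold in 9 of the 11 alternative settings in which it entered and fell just short in the others, at 0.99 after quantile normalization and 0.98 after loess. The IAP antagonist DIABLO (Smac) had 2392 with CTNNB1 siRNA and 1953 with control siRNA, a log2 ratio of 0.29. HTRA2, a mitochondrial protease that also binds IAPs, had 475 and 338.5 with CTNNB1 siRNA and 391 and 313.5 with control siRNA, log2 ratios of 0.28 and 0.11. ENDOG, the mitochondrial endonuclease G, had 465 with CTNNB1 siRNA and 361 with control siRNA, a log2 ratio of 0.37. Those of DIABLO, HTRA2 and ENDOG were above 0 but within 1 probe set SD of the all-gene median.

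Pro- and anti-apoptotic genes were then compared as lists. Of the 22 pro-apoptotic genes 20 entered, with a median log2 ratio of 0.28, and 13 of the 20 lay above the all-gene median. Of the 9 anti-apoptotic genes 8 entered, with a median of 0.16, and 4 of the 8 lay above it. Pro-apoptotic ratios ran from -0.73 in CASP10 to 1.78 in BAX, and anti-apoptotic ones from -0.30 in BCL2 to 0.35 in BIRC2. The medians differed by 0.12. The probe set SD of 0.42 describes single ratios and is no measure for a difference of medians. The interquartile ranges of the 2 lists overlapped, from -0.02 to 0.35 for pro-apoptotic and from -0.04 to 0.32 for anti-apoptotic genes. The difference ran from -0.0071 under a stricter filter, at the 75th percentile of signal, where 23 of these genes entered, to 0.26 with no filter, where 30 did. The ratio of all genes depended on signal: by decile of mean signal their median ran from -0.23 in the dimmest to 0.27 in the brightest. Of the 31 apoptosis genes, 22 lay in the 5 brightest deciles, where the medians of all genes were 0.19 to 0.28, close to the pro-apoptotic median. After loess, which takes this trend out, the pro-apoptotic median was 0.058 and the anti-apoptotic one -0.090, with -0.023 for all genes. For comparison, the interquartile range of all genes tested ran from -0.15 to 0.38.

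**Figure D3:**
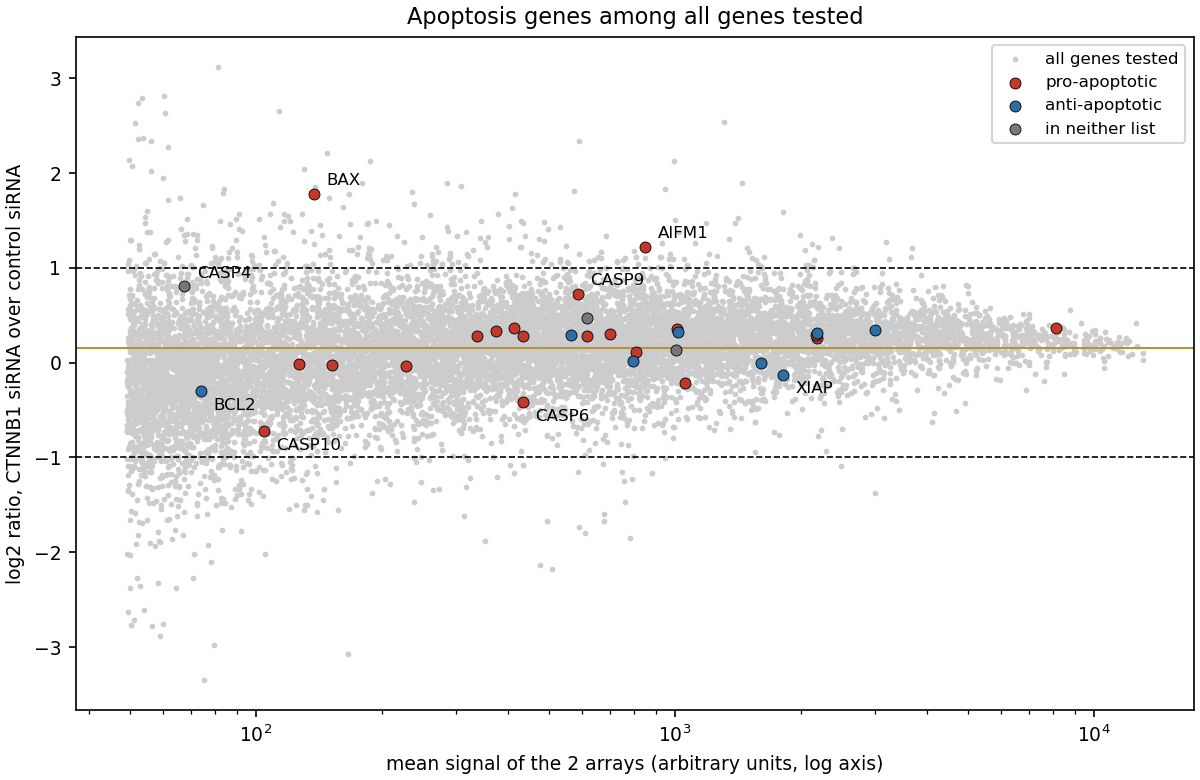
Log2 ratio (y axis) against the mean signal of the 2 arrays (x axis, log scale) for all 12531 genes tested in grey, with the 31 apoptosis genes coloured by list. BAX and AIFM1 lie above the upper dashed 2-fold line, and the other 29 lie between the lines around the all-gene median (gold).

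Counted by probe set, 7 of the 77 (9.09%) had at least 2-fold more signal with CTNNB1 siRNA and 0 had at least 2-fold less, where 3.42% and 2.21% of all entering probe sets with 1 symbol were. The 7 were both probe sets of BAX, that of AIFM1, 1 each of BCL2L11 and BCL2L1 and 2 of XIAP, so that pro- and anti-apoptotic genes were both among them. Of the 7, 2 (208478_s_at of BAX and 206665_s_at of BCL2L1) had a control signal under 49.1 and entered only through the array on which they were high, so the count is a description. Of the 7, all but 1, the XIAP probe set 243026_x_at, have names ending in _s_at. Of the 19 genes with several entering probe sets, 8 had all of them on 1 side of 0 and 11 had both signs (57.9%, against 45.4% of all such genes). In 5 of the 19 they were more than 1 apart on the log2 scale (26.3%, against 15.6% of all such genes): BCL2L11, BCL2L13, XIAP, CASP2 and CASP6.

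**Figure D4:**
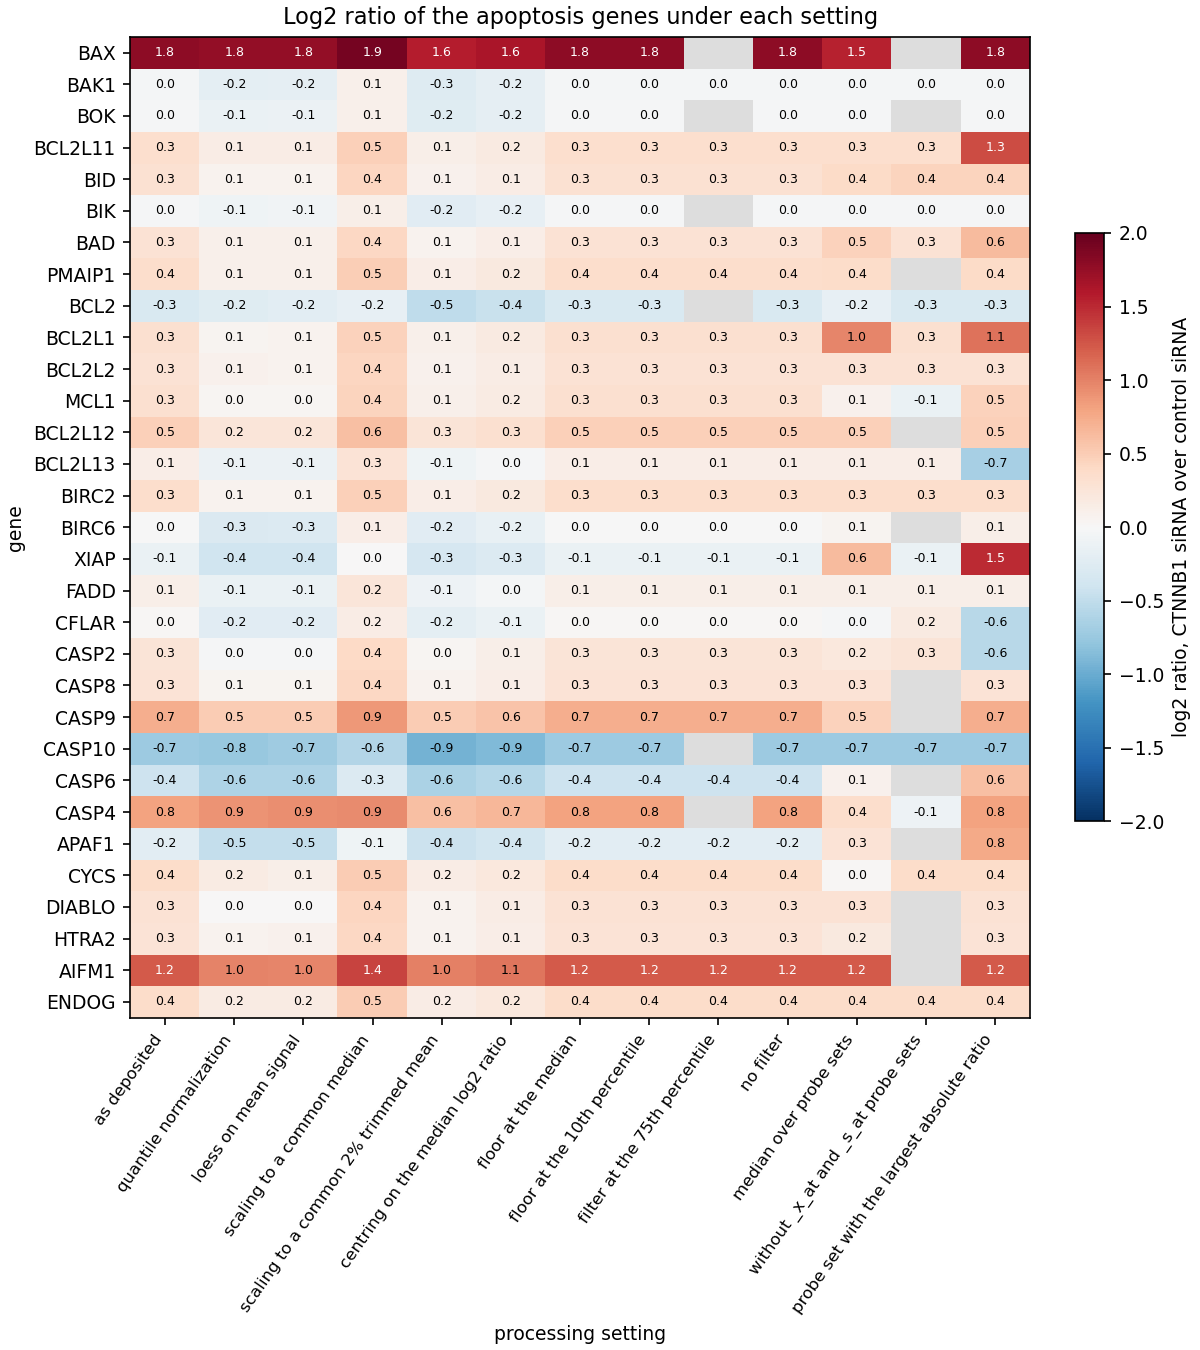
Log2 ratio of each of 31 genes (y axis) as deposited and in 12 alternative processing settings (x axis), as colour and printed to 1 decimal, with grey where the gene did not enter. The BAX and AIFM1 rows stay red wherever they have a value. With the choice of probe set, XIAP, CASP6, APAF1 and BIRC6 turn from below 0 to above it. CASP2, BCL2L13, CFLAR, MCL1 and CASP4 turn from above 0 to below it.

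How far the smaller ratios can be read depends on the scaling. Of the 31 genes, 22 kept their sign under all 5 other scalings and 9 did not: BAK1, BOK, BIK, BCL2L13, BIRC6, XIAP, FADD, CFLAR and CASP2. The share of all genes that changed sign is not given here. Their median itself turned to -0.033 with quantile normalization, -0.023 with loess and -0.066 with a common trimmed mean. Of the 31, 22 had a log2 ratio above 0 (71.0%), where 64.0% of all genes tested did.

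Other genes of the pathway were taken from a list of 35 in 4 groups, of which 24 entered. Of these, 2 were at least 2-fold higher and 1 at least 2-fold lower, where 2.29% and 2.38% of all genes tested were, and their median log2 ratio was 0.20. Both higher ones are receptors of the death ligand TRAIL, but not all receptors of TRAIL went with them. TNFRSF10B, also a TRAIL receptor, had 1255 with CTNNB1 siRNA and 1101.5 with control siRNA on its brightest probe set, a log2 ratio of 0.19. Its other entering probe sets had log2 ratios of 0.35 and -0.04. No probe set of TNFRSF10C, another TRAIL receptor, entered. TNFRSF10A, the death receptor DR4, had 619 with CTNNB1 siRNA and 294.5 with control siRNA (231775_at), 2.1-fold higher, and its other probe sets had log2 ratios of 0.65 and 0.02. TNFRSF10D, a decoy receptor with a truncated death domain, had 256 with CTNNB1 siRNA and 123 with control siRNA, 2.07-fold higher. Neither reached 2-fold after quantile normalization, loess, scaling to a common trimmed mean or centring on the median ratio, where their log2 ratios lay between 0.84 and 0.93.

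The lower one was BCL2L15, a little-studied relative of BCL2. It had 66.1 and 53.9 on its entering probe sets with CTNNB1 siRNA, against 194 and 171 with control siRNA, 2.93-fold and 3.17-fold lower. The remaining probe set, under the filter, read 13.3 with CTNNB1 siRNA and 84.8 with control siRNA. All 3 agree in direction, and the gene stayed at least 2-fold lower in all 11 alternative settings in which it entered. The next in absolute log2 ratio were the IAP gene BIRC7 (0.86), BCL2L14 (-0.82), the TRAIL gene TNFSF10 (-0.81) and the inflammatory caspase CASP1 (0.81, with -0.27 on a second probe set). Signals of BCL2L14, TNFSF10 and BIRC7 were under 100 on both arrays. Those of BCL2L14 and TNFSF10 with CTNNB1 siRNA, 37.9 and 43.4, were under the filter. They entered only through the control array, so they had to be lower with CTNNB1 siRNA. Among their probe sets under the filter, BCL2L14 had log2 ratios of -1.29 and 0.74 and TNFSF10 had 0.54. The rest were under the floor on both arrays.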

How the data were processed

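Total RNA of 2 HCC15 cultures, 1 per treatment, was hybridised as biotin-labelled target to 1 array each, per the labels. The deposited table held linear signal intensity values for 54675 probe sets, made by the authors with MAS5, per the submitters' processing notes. Its version, its target intensity and its detection calls were not given in the sources used here, nor was any scaling between arrays. The medians of the deposited intensities were 46.7 on the CTNNB1 siRNA array and 51.3 on the control array, and their 2% trimmed means 271 and 233.

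Genes were named from GEO's platform annotation, in which 41097 probe sets had 1 symbol and 1801 several. For 41043 probe sets with 1 symbol the Entrez number was found in RefSeq, and the current symbol was taken from there. No further normalization was applied. Signals under 13.8, the 25th percentile of all values, were set to that floor for the ratios, while signals are printed as deposited. All values of the apoptosis genes come from a computation over all 12531 genes, done with Python 3.11.15, numpy 2.4.6, pandas 2.3.3 and statsmodels 0.14.6 and tested on simulated arrays. Every member with a probe set was named. Of the other pathway genes, those past 2-fold and the next 4 by absolute ratio were named by rule. TNFRSF10B, TNFRSF10C, HRK, FAS and DFFA were named besides. Members, lists and alternatives were chosen with earlier results of these data known. There was no replicate, so p-values, tests and intervals were not possible, and the number of arrays limits the precision. Promoter sequences are from RefSeq windows of GRCh38.p14, which held 30 of the 34 genes.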

Additional observations from a re-analysis of the deposited data

How the results depend on the processing

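Each value was recomputed in 12 alternative settings. The count of apoptosis genes at least 2-fold higher, 2 as deposited, was 1 after quantile normalization, 1 after loess, 1 under the stricter filter, at the 75th percentile of signal (fewer genes tested), 0 without _x_at and _s_at probe sets (fewer genes tested) and 5 with the probe set of largest absolute ratio. The count at least 2-fold lower was 0 in all of them. The pro-apoptotic median, 0.28, was 0.064 after quantile normalization, 0.058 after loess, 0.42 with a common median, 0.068 with a common trimmed mean and 0.13 after centring. The anti-apoptotic median, 0.16, turned to -0.10 after quantile normalization, -0.090 after loess and -0.057 with a common trimmed mean. It was 0.0082 after centring and 0.32 with the largest ratio. The difference of the medians, 0.12, turned only under the stricter filter, to -0.0071. The median of all genes, 0.15, turned to -0.033, -0.023 and -0.066 with quantile normalization, loess and a common trimmed mean. Among the other pathway genes, the count higher, 2, was 0 after quantile normalization, loess, a common trimmed mean and centring, and 1 under the stricter filter and with probe set medians. The count lower, 1, was 3 with a common trimmed mean, 0 with that filter, and 2 without _x_at and _s_at probe sets and with the largest ratio. Beyond the alternatives' own construction, the cause was not tested. Over all genes, 298 were lower and 287 higher as deposited, 50.9% lower, and the lower share ran from 27.9% with a common median to 80.9% with a common trimmed mean among the 5 other scalings, and was 19.7% under the stricter filter, with 34 lower and 139 higher. Of 440 values of single named genes, 423 moved by no more than the probe set SD and 17 by more, all 17 through the choice of probe set. This count is largely set by the settings themselves. A common median, a common trimmed mean and centring shift all ratios above the floor by 1 amount each, smaller than that SD. Genes with 1 entering probe set could not move through the choice of probe set. No paired analysis was possible because each group holds 1 sample. The probe set SD was 0.29 over bright probe sets and 0.42 over all, so ratios of dim ones, as in BAX, BCL2, CASP4 and CASP10, are less certain.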

Other observations

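The BH3-only gene HRK, one of the other pathway genes, had 5 probe sets under the filter. Of these, 4 were lower with CTNNB1 siRNA, at 10.7, 12.7, 1.8 and 8.9 with CTNNB1 siRNA and 50.8, 40.7, 25.8 and 16.7 with control siRNA. All 4 readings with CTNNB1 siRNA were under the floor of 13.8. With that floor the log2 ratios were -1.88, -1.56, -0.90 and -0.28. The fifth (237187_at) was higher, at 52.8 with CTNNB1 siRNA and 35.2 with control siRNA. The death receptor gene FAS had 4 probe sets with log2 ratios from 0.34 to 0.49 and another, dim one (233820_at) that read 19.3 with CTNNB1 siRNA and 82.6 with control siRNA. DFFA, the inhibitor of the nuclease that cuts DNA during apoptosis, was higher on all 3 of its probe sets, with log2 ratios of 0.41, 0.69 and 1.14, the last at 333 with CTNNB1 siRNA and 150.9 with control siRNA.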
